A study of Mus musculus with 14 samples.

Results

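Skint1 to Skint10 are 10 neighbouring mouse genes for immunoglobulin-like membrane proteins, and their sequence variants were followed here in exomes of 12 mammary tumours. The members were taken by symbol from the protein-coding rows of the variant tables, in which 7 of the 10 genes had at least 1 variant in some tumour, among 21292 protein-coding gene symbols listed in all. The other 3 members, Skint3, Skint4 and Skint7, were listed in none of the 12 tumours and count as 0. The family had been picked out from its counts of protein-altering variants in the stiff gel tumours against the soft gel tumours. Values of that contrast are therefore given as a description, with no test.

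All 12 tumours grew from mammary fragments of p53null Balb/c mice, implanted into the mammary fat pad and collected when the tumour reached a diameter of at most 2 cm. In the stiff group (A7, A8 and A9) the cleared fat pad of a wild-type female, 3 to 4 weeks old, first received a gel of collagen 1 cross-linked with 500 mM L-ribose and of basement membrane extract at 20%. In the soft group (A1, A2 and A3) the collagen was left without ribose. In the KO group (B4, B5 and B6) the host was a LysM-Cre GPX4 knockout mouse and no gel is named, and in the WT group (B1, B2 and B3) the host was a LysM-Cre GPX4 wild-type mouse. Donors of the fragments in the gel experiment were 8 to 10 weeks old and the ages of the LysM-Cre hosts are not given in the labels. LysM-Cre acts mainly in myeloid cells, so the knockout concerns cells of the host, and counts of small variants give no check of it. The study set out to relate tissue stiffness and oxidative stress to DNA damage. The 2 tail samples of wild-type mice were not analysed here, so inherited differences from the reference genome, false calls and somatic changes cannot be told apart.

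The name Skint stands for selection and upkeep of intraepithelial T cells. The proteins resemble butyrophilins and are made mainly by epithelial cells of the mouse thymus and by keratinocytes of the skin. Skint1, the founding member, is needed in the thymus for the maturation of the gamma delta T cells that later populate the epidermis. Skint2 is also known as B7S3 and was described as an inhibitor of T cell responses. For the other members no role is given here. DNA variants say nothing of whether a gene was expressed, and no cell type was read from these data.

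Members of the family arose by duplication and resemble each other. Skint5 and Skint6 held the most intron variants of the family, and the stretches before their start sites shared more identical bases than any other pair. Of the 250 bases upstream of each start in RefSeq (GRCm38.p6), 222 were identical in an alignment of the pair, or 88.8%. Over the 55 pairs that Skint1 to Skint11 form, the median share of the 250 bases that were identical was 8.8%. The next pair, Skint10 with Skint11, had 70% (175 bases). Many pairs aligned over only a short part of the 250 bases, so a low share does not measure how unlike the aligned parts are. Skint7 with Skint8, for instance, had 69 identical bases of only 72 aligned. Both stretches are on the minus strand of chromosome 4, Skint5 at chr4:113999504-113999753 and Skint6 at chr4:113286974-113287223, and are written 5′ to 3′ with the bases that differ in capitals.
Skint5: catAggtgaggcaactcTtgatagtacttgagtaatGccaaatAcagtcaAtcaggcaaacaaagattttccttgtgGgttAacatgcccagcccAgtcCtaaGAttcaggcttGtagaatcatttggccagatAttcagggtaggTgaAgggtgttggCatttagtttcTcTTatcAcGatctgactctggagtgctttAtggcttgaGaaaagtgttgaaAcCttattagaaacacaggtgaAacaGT
Skint6: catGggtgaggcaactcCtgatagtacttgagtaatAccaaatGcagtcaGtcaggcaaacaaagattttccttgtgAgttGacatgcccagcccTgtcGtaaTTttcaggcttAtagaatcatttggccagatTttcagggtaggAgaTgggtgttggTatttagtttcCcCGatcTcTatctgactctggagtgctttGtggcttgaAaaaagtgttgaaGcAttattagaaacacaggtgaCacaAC
Each stretch holds 28 differing bases, spread along its whole length. The stretches lie upstream of the RefSeq start sites, and whether they touch an exon or intron of another transcript counted below was not checked. Whether reads of related members were placed on the right copy was not tested, since the variant tables hold no read positions.

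Skint5 carried most of the family's protein-altering variants, those that snpEff, the program that annotated the variants, predicted to have HIGH or MODERATE impact. The gene had 64 of the 94 such variants summed over the members and the 12 tumours, or 68.1%, and had them in 9 tumours. It had 0, 0 and 3 in the stiff tumours A7, A8 and A9, against 8, 6 and 8 in the soft tumours A1, A2 and A3. It had 1, 0 and 8 in the KO tumours B4, B5 and B6, against 8, 7 and 15 in the WT tumours B1, B2 and B3. The stiff tumours all lay below the soft ones, while the KO tumour B6 reached the level of the WT tumours. The zeros were found in A7, A8 and B5, and the highest count in B3.

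**Figure D1:**
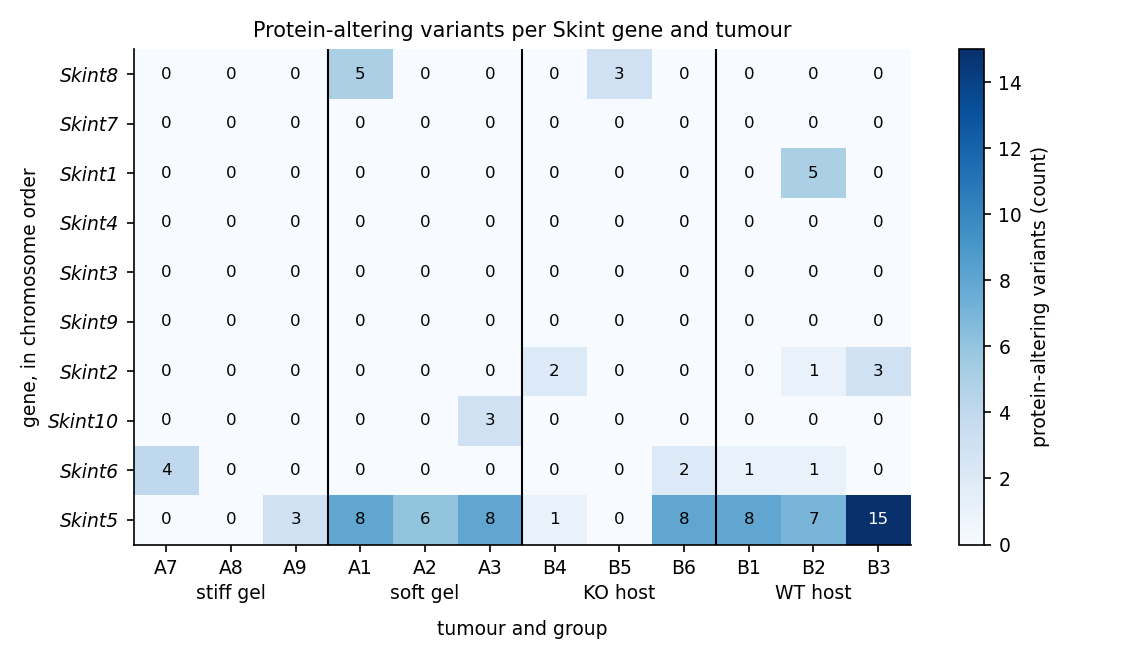
Counts of protein-altering variants for each Skint gene (rows, in chromosome order) in each of the 12 tumours (columns, by group, stiff gel, soft gel, KO host and WT host), with darker blue for higher counts. Skint5, in the bottom row, is filled in 9 tumours, whereas Skint3, Skint4, Skint7 and Skint9 are at 0 in all 12.

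The other members had protein-altering variants in few tumours. Skint1 had 5 in the WT tumour B2 and 0 in the other 11 tumours. Skint2 had 2 in the KO tumour B4, 1 in the WT tumour B2 and 3 in the WT tumour B3, and 0 in every gel tumour. Skint6 had 4 in the stiff tumour A7, 2 in the KO tumour B6, and 1 each in the WT tumours B1 and B2. These 3 genes had no group in which every tumour carried a variant. Skint8 had 5 in the soft tumour A1 and 3 in the KO tumour B5, and Skint10 had 3 in the soft tumour A3. Skint9 had none in any tumour, although its introns had variants in 4. Of the 10 members, 4 had a protein-altering variant in no tumour, 2 in 1 tumour, 4 in several tumours and 0 in all 12. Over all 21292 listed genes, 9466 had one in no tumour, 3850 in 1 tumour and 1593 in all 12.

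Where a member had coding variants, it tended to have several. Of the 120 combinations of member and tumour, 21 had a coding variant (synonymous and other LOW impact variants included), and 15 of these 21 had at least 5, or 71.4%. Over all listed genes, 20.5% of the combinations with a coding variant had at least 5. Without Skint5, 8 of 12 combinations had at least 5. Skint10, for instance, had 7 coding variants in A3 and 0 in the other tumours, and Skint1 had 7 in B2 alone. Skint8 had 7 in A1 and 6 in B5. Lower counts were found too, such as 1 for Skint5 in B4 and 1 for Skint2 in A3. Variants within one gene and tumour may lie on one stretch of DNA and are not independent. The combinations also include the gel tumours by which the family was picked, and Skint5 supplied 9 of the 21. The shares are therefore a description, and nothing is read from their difference from all genes.

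The kinds of change in Skint5 were read from the effect columns of the tables, as sums over the 12 tumours. Skint5 had 46 missense, 17 synonymous, 15 frameshift and 2 stop-gained variants, and 30 in splice regions. That is 37.0 synonymous variants per 100 missense in Skint5, against 78.1 over all protein-coding genes. Frameshifts stood at 32.6 per 100 missense variants in Skint5 and at 28.2 over all genes, and splice-region variants at 65.2 and 23.2. Skint5 therefore had relatively few synonymous and many splice-region calls, as a description of sums to which the same variant can contribute in several tumours. Variants of HIGH impact, which are predicted to truncate the protein or break a splice site, numbered 18 in Skint5, 4 in Skint6, 2 in Skint8, and 1 each in Skint2 and Skint10. The stop-gained variants of Skint5 were in the soft tumours A1 and A2, 1 in each, and its splice-donor variants were in the WT tumours B1, B2 and B3, 1 in each.

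In the gel experiment all stiff tumours had a lower family sum than any soft one. The 10 members together had 4, 0 and 3 protein-altering variants in A7, A8 and A9, against 13, 6 and 11 in A1, A2 and A3. The means were 2.33 ± 2.08 in stiff tumours and 10.0 ± 3.61 in soft tumours (SD, n = 3 each), a difference of -7.67. Per 1000 protein-altering variants of the tumour, the family had 0.240 ± 0.210 in stiff tumours and 0.952 ± 0.405 in soft tumours (SD, n = 3 each), again without overlap. Skint5 accounted for most of the gap, with 1.00 ± 1.73 in stiff and 7.33 ± 1.15 in soft tumours (SD, n = 3 each). Without Skint5 the sums overlapped, at 1.33 ± 2.31 in stiff and 2.67 ± 2.52 in soft tumours (SD, n = 3 each). Of the 4 members with at least 3 protein-altering variants over the 6 gel tumours, 1, Skint5, had its stiff values all below its soft values, and 0 had them all above. Over all genes that passed this filter the shares were 2.69% and 1.18%. The family was chosen on this contrast, so nothing is read from the count. Without A9 the difference in the family sum was -8.

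**Figure D2:**
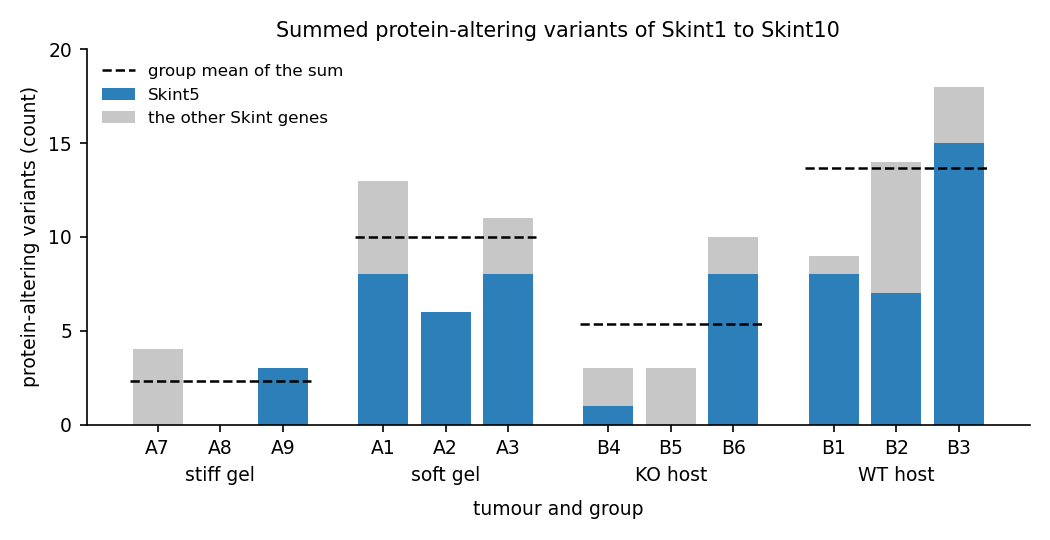
Protein-altering variants summed over Skint1 to Skint10 in each tumour (bars, count, axis from 0), split into Skint5 and the other members, with the mean of each group of 3 tumours as a dashed line. The stiff bars stand at 4, 0 and 3, below all soft bars at 13, 6 and 11, while the KO bar B6 at 10 stands above the WT bar B1 at 9.

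The host experiment, whose tumours were not used to choose the family, asks whether the genotype of the host's myeloid cells went with another count. The family sum was 3, 3 and 10 in the KO tumours B4, B5 and B6, against 9, 14 and 18 in the WT tumours B1, B2 and B3. The means were 5.33 ± 4.04 in KO and 13.7 ± 4.51 in WT tumours (SD, n = 3 each), and the groups overlapped through B6 and B1. With LOW impact variants included, the sums were 3, 6 and 17 in KO tumours, against 18, 24 and 27 in WT tumours, and did not overlap. That separation rested on B6 at 17 and B1 at 18, tumours with 24668 and 27324 coding variants over all genes. These coding sums were not scaled by the tumour's total. Scaled per 1000 protein-altering variants of the tumour, the family had 0.437 ± 0.210 in KO and 0.990 ± 0.442 in WT tumours (SD, n = 3 each), with overlap. Without Skint5 the sums were 2.33 ± 0.577 in KO and 3.67 ± 3.06 in WT tumours (SD, n = 3 each).

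Gene by gene, no member passed the test between KO and WT tumours. edgeR's quasi-likelihood test with Benjamini-Hochberg adjustment called 0 of 5308 genes (0% higher and 0% lower), with 199 at an unadjusted p under 0.05. DESeq2 called 0, with 28 at an unadjusted p under 0.05. In simulated counts with 50 genes changed at each fold, the edgeR test recovered 0% at 2-fold and 14% at 4-fold. It recovered 32% at 8-fold and 56% at 16-fold, so a gene that differed could easily go uncalled. The changed genes were drawn from those with a mean of at least 5, and all genes shared 1 dispersion (0.0883). Of the members, Skint5 alone had such a mean over the host tumours (6.50). The rates therefore do not apply to the other members, and for Skint5 they rest on that dispersion. Skint5 averaged 3.00 ± 4.36 in KO and 10.0 ± 4.36 in WT tumours (SD, n = 3 each), with a log2 fold change of -1.70 (approximate SE 0.96) and an edgeR adjusted p of 1. Skint2 had a log2 fold change of -0.88 (approximate SE 1.46), and Skint6 had 2 variants in each group. Skint1 was at 0 in every KO tumour and Skint8 in every WT tumour, so no fold is given for them. Of the 5 members that passed the filter, 0 had groups that did not overlap, where 4.26% of all genes tested were lower and 0.735% higher in every KO tumour than in the WT tumours. Without B5, which has few calls throughout, the difference in the family sum of KO from WT tumours was -7.17 in place of -8.33.

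Gel tumours, stiff and soft together, were also set against the host tumours, KO and WT together. In this contrast the gel, the host mice and any difference between the experiments in sampling or sequencing cannot be told apart. It also uses the stiff and soft counts by which the family was picked, so for protein-altering variants it is no independent evidence. The fitted value is the mean of the log2 levels of stiff and soft tumours minus that of KO and WT tumours. The family sum averaged 6.17 ± 4.96 in gel tumours and 9.50 ± 5.96 in host tumours (SD, n = 6 each), and the groups overlapped. Of the 6 members that passed the filter, 0 had groups that did not overlap, beside 0.205% of all genes lower and 0% higher in every gel tumour. edgeR called 0 of 6829 genes (0% in either direction), with 413 at an unadjusted p under 0.05, whereas DESeq2 called 5, with 105 at an unadjusted p under 0.05. Skint5 averaged 4.17 ± 3.71 in gel and 6.50 ± 5.47 in host tumours (SD, n = 6 each), with a log2 fold change of -0.96 (approximate SE 0.75) and an edgeR adjusted p of 0.768. DESeq2 gave Skint5 an adjusted p of 1 and the other members none. Without B6 the fitted edgeR value for Skint5 was 0.20, whereas the difference of the plain means was -2.03, against -2.33 with all tumours. Without A9 and B5 the difference of the plain means was -3.40. No fold is given for that fit because the remaining stiff tumours, A7 and A8, were at 0. Skint6 had 4 variants in each set, a mean of 0.667 in gel and 0.667 in host tumours, and an edgeR adjusted p of 0.856. No fold is given for it because the soft group was at 0. Skint2, at 0 in all 6 gel tumours and at 2, 0, 0, 0, 1 and 3 in the host tumours B4, B5, B6, B1, B2 and B3, had an edgeR adjusted p of 0.648.

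Introns gave far larger counts than coding sequence, although an exome kit captures introns only beside exons. Skint5 had 572, 507 and 335 intron variants in the stiff tumours A7, A8 and A9, against 631, 784 and 712 in the soft tumours A1, A2 and A3. It had 891, 494 and 1655 in the KO tumours B4, B5 and B6, against 2036, 1748 and 1088 in the WT tumours B1, B2 and B3. The stiff tumours were all below the soft ones, and KO and WT tumours overlapped. The total of intron variants over all genes was likewise lower in every stiff tumour (247367 to 281448) than in every soft one (284475 to 337696). Of all genes with at least 3 intron variants over the gel tumours, 8.24% had every stiff count below every soft count. Skint5 supplied 11453 of the family's 19145 intron variants, or 59.8%. Its intron count followed the tumour's total of intron variants, which ran between 247367 in A9 and 531045 in B1, with a Pearson r of 0.986 over 12 tumours, given as a description because both share the depth of the library.

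Divided by that total, Skint5 still differed between tumours, and its share was mostly higher where the total was higher. It had 2.03, 1.92 and 1.35 per 1000 intron variants in the stiff tumours, against 2.22, 2.32 and 2.32 in the soft tumours. It had 2.78, 1.97 and 3.42 in the KO tumours, against 3.83, 3.90 and 2.80 in the WT tumours. Each stiff value lay below each soft value, and the KO tumour B6 lay above the WT tumour B3. The share of all genes with such an order was not computed for scaled values. The family was also chosen on stiff against soft tumours, so nothing is read from the stiff and soft order. A9 and B5, the lowest of their groups, also had the fewest coding variants of all 12 tumours (15478 and 14431) and fewer frameshifts per 100 missense variants (19.9 and 23.1, against 27.7 to 30.8 in the other 10). The Skint5 share was 1.35 in A9, with the lowest total (247367), and 3.83 in B1, with the highest (531045). Dividing by the total therefore did not remove its tie to Skint5. Totals averaged 286920 ± 31990 in gel and 404174 ± 104992 in host tumours (SD, n = 6 each). The part of these features in the Skint5 values was not tested.

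**Figure D3:**
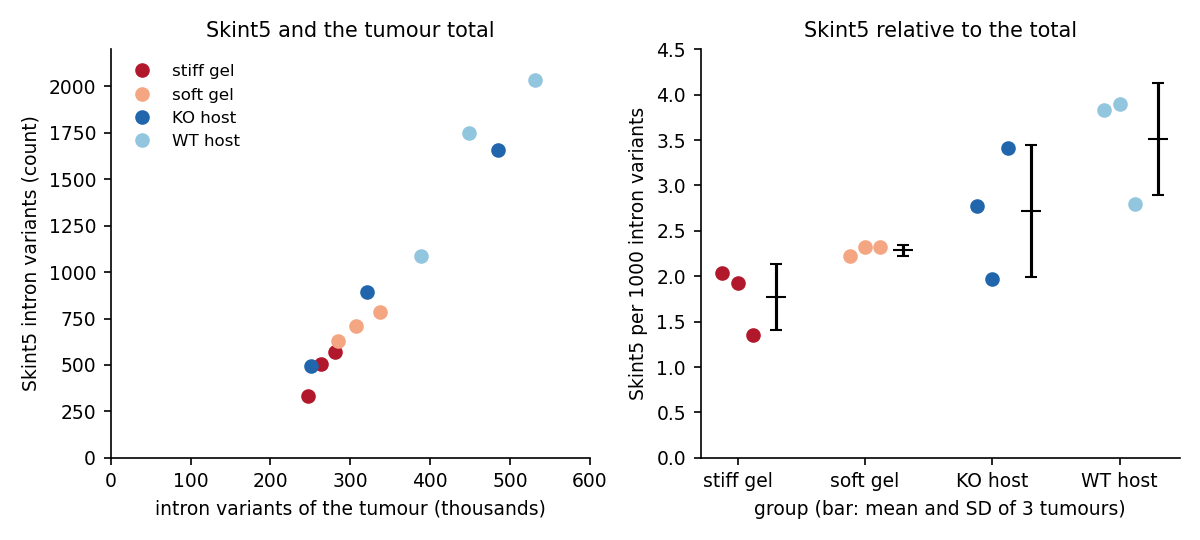
Left, Skint5 intron variants (count) against all intron variants of the tumour (in units of 1000), 1 point per tumour; right, the same Skint5 counts per 1000 intron variants of the tumour by group, with bars for the mean and SD of 3 tumours. On the left the points rise together, and on the right the gel tumours lie between 1.35 and 2.32 and the host tumours between 1.97 and 3.90, with B5 the lowest host tumour.

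Tested over all genes with the tumour's total of intron variants as library size, Skint5 and Skint6 were lower in gel tumours than in host tumours. edgeR called 297 of 16791 genes lower (1.77%) and 197 higher (1.17%). The gel tumours are those by which the family was picked. Skint5 introns were also lower in stiff (1.77 ± 0.364 per 1000) than in soft tumours (2.29 ± 0.0594; SD, n = 3 each). The intron test is therefore not independent of that choice either, and its library size was chosen after seeing the data. Skint5 averaged 2.03 ± 0.367 per 1000 intron variants in gel tumours and 3.11 ± 0.742 in host tumours (SD, n = 6 each), and fell with a log2 fold change of -0.62 (approximate SE 0.13, edgeR adjusted p = 0.0128). The call for Skint5 held without each of the 12 tumours in turn, with adjusted p-values between 0.00270 and 0.0499, and without A9 and B5 together (-0.63, edgeR adjusted p = 0.00627). Of the host tumours, B5 alone lay within the range of the gel tumours, and it had the lowest total of intron variants among them (251229). Skint6 had a log2 fold change of -0.59 (approximate SE 0.15, edgeR adjusted p = 0.0421), and held in 3 of the 12 such fits, its adjusted p reaching 0.133 without B6. Without A9 and B5 together it was 0.0123. The median gene was shifted by 0.23 in this fit and by -0.22 with equal library sizes, where Skint5 had -1.15 and Skint6 -1.10 (edgeR adjusted p = 0.038 and 0.0452), so both lay below the median gene under either scaling.

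Other members did not pass that intron test. Skint10 had 56, 26 and 37 intron variants in the stiff tumours, 87, 92 and 79 in the soft, 136, 35 and 193 in the KO and 157, 173 and 142 in the WT tumours. Its log2 fold change of gel over host was -0.72 with an edgeR adjusted p of 0.0614. Without B5 the adjusted p was 0.0033, without A7 it was 0.0376, and with equal library sizes it was 0.0499, so its call turned on these choices. Skint2 had 166, 161 and 157 in the stiff tumours, 188, 189 and 186 in the soft, 208, 138 and 227 in the KO and 359, 263 and 231 in the WT tumours. Its values were close together within each gel group, and its fitted gel over host value was 0.06 (edgeR adjusted p = 0.764), or -0.42 with equal library sizes (edgeR adjusted p = 0.14).

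In the KO against WT intron test no member was called either, where edgeR called 6 of 15066 genes lower (0.0398%) and 12 higher (0.0796%), with 805 at an unadjusted p under 0.05, and 0 genes with equal library sizes. Skint5 had a log2 fold change of -0.36 and Skint6 of -0.51 (edgeR adjusted p = 0.899 for both). By the plain order of counts, Skint2 was lower in every KO than in every WT tumour, 1 of the 6 members that passed the filter, and 0 were higher, beside 6.43% and 0.936% of all genes. Scaled by the tumour's total, Skint2 overlapped between KO and WT tumours (0.555 ± 0.0901 and 0.619 ± 0.0497 per 1000). Skint6 did not, at 0.878 ± 0.177 per 1000 in KO and 1.25 ± 0.157 in WT tumours (SD, n = 3 each). By plain counts Skint6 overlapped, with 495 in the KO tumour B6 and 485 in the WT tumour B3. The share of all genes without overlap was not computed for scaled values, so nothing is read from the Skint6 order. Between stiff and soft tumours, Skint2, Skint5, Skint8 and Skint10 had all stiff counts below all soft counts, 4 of the 6 members that passed the filter, and 0 had them above, beside 8.24% and 1.99% of all genes. Nothing is read from that count, because the family was chosen on this contrast and Skint8, at 0 in every stiff tumour and at 6, 19 and 8 in the soft ones, passed the filter through the soft group alone. Between gel and host tumours the counts of all 6 overlapped, where 0.613% of all genes were lower and 0.0834% higher in every gel tumour. Scaled by the total, Skint2 overlapped between stiff and soft tumours as well, at 0.612 ± 0.0225 per 1000 in stiff and 0.609 ± 0.0507 in soft tumours (SD, n = 3 each).

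Among the 10 members, intron variants were densest in the last 4 along chromosome 4. In RefSeq order the genes run Skint8, Skint7, Skint1, Skint4, Skint3, Skint9, Skint2, Skint10, Skint6 and Skint5, followed by Skint11, which is no member. Intron variants per kilobase of gene span, averaged over the 12 tumours, were 5.33 in Skint2, 1.58 in Skint10, 0.674 in Skint6 and 1.83 in Skint5. In the first 6 genes they were 0.165 in Skint8, 0.0729 in Skint9, 0.00358 in Skint1, and 0 in Skint7, Skint4 and Skint3. The median over 21900 protein-coding genes was 0.0704 and the 95th percentile 1.67, so that Skint2 and Skint5 stood above 99.2% and 95.6% of genes. Being listed in no tumour was found for 6.95% of these genes, against 3 of the 10 members. Spans are those of GRCm38.p6, while the variants were called on GRCm39, so the densities are approximate, and an exome does not cover a span evenly.

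**Figure D4:**
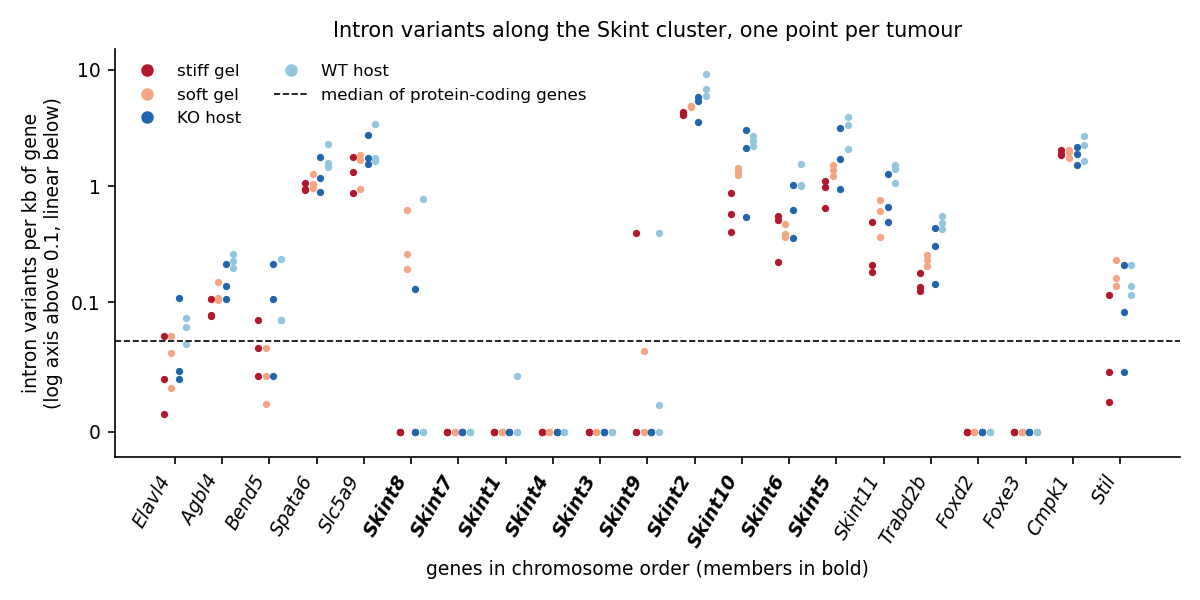
Intron variants per kilobase of gene span for the Skint genes (bold) and their neighbours in chromosome order, 1 point per tumour coloured by group, on an axis that is logarithmic above 0.1 and linear below, with the median of all protein-coding genes (0.0704) as a dashed line. Skint2, Skint10, Skint6 and Skint5 lie above that line in all 12 tumours, while Skint7, Skint4 and Skint3 have none.

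Genes beside the cluster had variants on both sides. Slc5a9, the sugar transporter gene next to Skint8, had 1.77 intron variants per kilobase, and Spata6 beyond it had 1.28. Past Skint11, Cmpk1 had 1.97 and Stil had 0.128. Skint11 had 0.750, and its intron count was lower in gel than in host tumours (log2 fold change -0.82, edgeR adjusted p = 0.0483). That call held in 3 of the 12 fits without a single tumour, with adjusted p-values between 0.0108 and 0.149, and the adjusted p was 0.128 without A9 and B5. Within the family, Skint7, Skint1, Skint4 and Skint3 lay below the median of all genes, while Skint8 and Skint9 lay above it. Protein-altering variants were not limited to the dense end, since Skint8 had 8 over the 12 tumours, as many as Skint6, and Skint1 had 5. Protein-altering variants of Skint11 numbered 1 in the stiff tumour A7, 1 each in the KO tumours B5 and B6, and 1 in the WT tumour B1.

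Butyrophilin relatives, the 10 genes listed as nearest in kind to the Skint family, had 5 genes lower on average and 0 higher in KO than in WT tumours. Their summed protein-altering variants were 21.3 ± 0.577 in KO and 36 ± 3.61 in WT tumours (SD, n = 3 each), without overlap, and edgeR called none of the genes. Most of the gap was Btnl4, with 2, 2 and 0 in the KO tumours, against 3, 17 and 16 in the WT tumours. Over all genes, 5029 averaged lower and 2989 higher in KO tumours. In gel tumours, stiff and soft together, 6 relatives averaged lower and 0 higher than in host tumours, and their sums did not overlap, at 15.3 ± 2.07 in gel and 28.7 ± 8.36 in host tumours (SD, n = 6 each). Over all genes, 6294 averaged lower and 4141 higher in gel tumours. These sums were not scaled by the tumour's total of protein-altering variants. That total averaged 11330 ± 3278 in KO and 14386 ± 1994 in WT tumours (SD, n = 3 each). It averaged 10217 ± 909 in gel and 12858 ± 2948 in host tumours (SD, n = 6 each). How often sums over other genes lie without overlap was not computed, so nothing is read from the order of these sums. Within the gel experiment the relatives had 14.7 ± 2.31 in stiff and 16 ± 2 in soft tumours (SD, n = 3 each), with overlap. The 15 genes linked to epidermal gamma delta T cells had 4.67 ± 3.79 in KO and 7 ± 4 in WT tumours, and 6.33 ± 1.53 in stiff and 6.67 ± 2.31 in soft tumours (SD, n = 3 each), also with overlap. Of these genes, 6 averaged higher and 3 lower in gel than in host tumours. Their sums were 6.5 ± 1.76 in gel and 5.83 ± 3.71 in host tumours (SD, n = 6 each), with overlap.

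The genes outside the family whose protein-altering counts ran most alike to the family sum were Ifi206, Ms4a1, Map1b, Col27a1 and Cfap47, with Pearson r between 0.751 and 0.819 over 12 tumours, of 1398 genes compared. The family sum itself had an r of 0.513 with the tumour's total of protein-altering variants. Ms4a1, which encodes the B cell antigen CD20, had 7, 1 and 1 in stiff and 10, 7 and 7 in soft tumours, and 5, 1 and 9 in KO and 10, 9 and 9 in WT tumours. These likenesses were picked as the highest of many and are a description.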

How the data were processed

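Exomes of 12 mammary tumours, 3 in each of 4 groups, were analysed from per-gene tables that list whole-number counts of variants per transcript by predicted impact and effect, written by snpEff and deposited by the authors, per the file headers. Per the labels' protocols, a SureSelectXT mouse exon kit was used for capture and 150 bp read pairs came from Illumina NovaSeq instruments of different models, at over 50x (6 Gb per sample). The tools named in the submitters' processing notes are GATK, SAMtools 1.19.2 and BWA 2.2.1, with GRCm39 as the build. Caller settings, filters and any use of tail DNA were not given in the sources used here. No read depth is in the tables, and the precision of a single count is therefore unknown.

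The count of a gene was the maximum over its protein-coding transcripts in each class, and an unlisted gene was taken as 0. Protein-altering means HIGH plus MODERATE, coding adds LOW. Genes with a sum of at least 3 were tested with edgeR 4.0.16 in R 4.3.3 (quasi-likelihood, equal library sizes, Benjamini-Hochberg over all genes, threshold 0.05), with DESeq2 1.42.0 as an alternative. Approximate SEs were obtained by dividing the size of each log2 fold change by the root of its F statistic. Intron counts were tested with the tumour total as library size, a choice made after seeing the data, as was leaving out A9 and B5 together or Skint5. P-values measure the spread between tumours, which the labels give as separate samples and which may be technical. Tests were tried on simulated data. The family was described member by member, its neighbours being the 5 genes on each side. Upstream stretches were aligned globally with free end gaps. The members and lists were chosen with earlier results of these data known. Alternatives changed the transcript rule, impact classes, filter, library size, tool and tumours.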

Additional observations from a re-analysis of the deposited data

Results flagged for a closer look

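Across 11 combinations of member and set of 6 tumours (gel or host), 5 had 1 tumour far from the other 5. For evenly spread values, which the gap test assumes, chance gives such a gap in about 1 in 20 groups. In each of these combinations the other tumours were all at 0, where any single count makes such a gap. That rate therefore does not apply here, and the flags are a description only. Skint6 had 4 protein-altering variants in the stiff tumour A7, against 0 in the other gel tumours. Skint8 had 5 in the soft tumour A1, with 0 in the other gel tumours, and 3 in the KO tumour B5, with 0 in the other host tumours. Skint10 had 3 in the soft tumour A3, and Skint1 had 5 in the WT tumour B2, with 0 in the other tumours of their sets.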

How the results depend on the processing

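No member's protein-altering count passed the edgeR threshold under any setting run. In gel against host tumours, called genes numbered 5 with DESeq2 and 0 to 3 with a tumour left out (3 without A2), and the fitted Skint5 value turned to 0.20 without B6 (range -2.54 to 0.20). The family difference of stiff from soft was -13.7 with coding variants, -1.33 without Skint5 and -9.67 to -6.17 with a tumour left out; KO from WT gave -14.3, -1.33 and -10.7 to -6.17; gel from host gave -4.70 to -1.63 with a tumour left out. In introns, KO against WT calls numbered 0 with equal library sizes, 10 without A9 and B5, and 4 to 23 with a tumour left out. Skint10 turned to 0.24 without B5 (range -0.32 to 0.24). Gel against host intron calls ran between 168 without B6 and 1095 without B5, and Skint2 turned to -0.42 with equal library sizes. The causes were not tested. No paired analysis was possible because the groups compared within an experiment share no replicate numbers. The depth behind the counts is unknown, so what it limits cannot be given.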
